A study of Mus musculus with 8 samples.

Results

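The cytosolic ribosome is built from ribosomal RNA and a set of proteins that each occupy a fixed place in the small or the large subunit. Their genes were examined here in the hippocampus of male mice. They were taken from the platform annotation by symbol: Rpl or Rplp followed by a number, Rps followed by a number (Rps6k kinases and pseudogenes left out), and Rpsa. The rule found 65 genes, each with 1 transcript cluster (the group of array probes summarised as a gene), among 22206 clusters in all. Of these 65, 24 belong to the small subunit and 41 to the large subunit, and 10 are copies of another ribosomal protein gene (paralogues and retrocopies such as Rpl22l1 and Rpl37rt). The RefSeq gene table of GRCm38.p6 holds 86 protein-coding genes that meet the rule. Clusters annotated with several symbols were left out before the rule was applied. Genes found only on such clusters, and genes without a cluster, were therefore not analysed here.

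The dams were dosed orally on postnatal days 1 to 4, either with vehicle or with clothianidin (CLO), a neonicotinoid insecticide, at 65 mg/kg/day. The groups were vehicle at 3 weeks, clothianidin at 3 weeks, vehicle at 10 weeks and clothianidin at 10 weeks, with 2 arrays each. The dose is described as one with no observed adverse effect, and the strain is not given in the labels. The labels do not tie the arrays to separate animals or litters, so p-values measure only the spread between these arrays, which may be technical.

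Ribosomal protein genes are transcribed at high rates in most cells, and the proteins are made in near equal numbers because each ribosome carries most of them once. Their messenger RNAs begin with a C followed by a run of pyrimidines, the terminal oligopyrimidine tract, through which mTOR signalling and the protein Larp1 control their translation. In neurons part of this messenger RNA is found in axons and dendrites, and its amount does not by itself give the number of ribosomes. Most copies of these genes in the mouse genome are processed pseudogenes that the array probes may not tell from the parent gene, so values of single members can mix several sources.

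A minority of the annotated starts opened with a C followed by a pyrimidine, as this tract does. A promoter entry of RefSeq (GRCm38.p6) was used for 52 of the 65 members, with 63 listed starts. Rpl17 and Rps14 were left out by a filter on their chromosome, which was not applied to the promoters of the whole table. The annotated first base was a C followed by C or T at 17 of these 63 starts (27.0%), against 9.67% of all 32851 promoters in the table. A run of at least 8 pyrimidines within 10 bases of the start was present at 34.9% of the members' starts and 13.7% of all. A run of at least 5 was present at 66.7% and 44.9%. The letters CGGAAG, the core recognised by factors of the ETS family, were searched on both strands of the 300 bases around the start and were present in 54.0% of the members' promoters and 16.9% of all. TATAAA, searched likewise and unable to overlap it, was present in 11.1% and 13.6%. A match is a description and not a binding site, and annotated starts can lie some bases from the true one.

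The windows below run from 20 bases before to 20 bases after the start for the members whose values the results turn on and that have a single listed start. Rpl22l1, Rpl37rt and Rps13 passed the test for age, and the others had the lowest unadjusted p-values for exposure at 3 weeks, which Rps13 shares. Capitals mark the longest run of at least 5 pyrimidines that overlaps the 10 bases on either side of the start.
Rpl22l1 (chr3:28805488-28805527, plus strand): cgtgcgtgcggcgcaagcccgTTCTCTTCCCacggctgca
Rpl37rt (chr5:115110249-115110288, minus strand): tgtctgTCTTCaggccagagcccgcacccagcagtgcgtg
Rps13 (chr7:116334171-116334210, minus strand): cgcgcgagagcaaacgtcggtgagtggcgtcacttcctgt
Rpl28 (chr7:4792945-4792984, plus strand): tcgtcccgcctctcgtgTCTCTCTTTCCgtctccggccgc
Rpl35 (chr2:39005112-39005151, minus strand): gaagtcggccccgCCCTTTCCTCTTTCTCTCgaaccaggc
Rps9 (chr7:3704021-3704060, plus strand): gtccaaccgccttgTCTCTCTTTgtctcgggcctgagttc
Rpl4 (chr9:64173367-64173406, plus strand): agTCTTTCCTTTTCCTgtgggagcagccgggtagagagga
Rpl36a (chrX:134585634-134585673, plus strand): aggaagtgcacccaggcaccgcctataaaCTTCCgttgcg
Rpl23 (chr11:97782420-97782459, minus strand): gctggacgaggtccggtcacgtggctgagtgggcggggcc
Rpl28 and Rpl35 carry runs of 11 and 18 pyrimidines across the start, while Rps13 and Rpl23 have none of at least 5 at the annotated position.

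Values are log2 intensities, so a difference of 1 is a doubling of signal. Array medians over all clusters lay between 5.73 and 5.86, and arrays of the same group correlated at 0.984 to 0.99 (Pearson r over clusters). Values spread least in the first vehicle array at 3 weeks (standard deviation 3.15, others 3.26 to 3.39). Of the 11 hippocampal neuron markers, 9 were measured and 7 lay above the upper quartile of every array. Ttr of the choroid plexus was above 18 on 3 arrays (second vehicle and first clothianidin at 3 weeks, first clothianidin at 10 weeks) and between 5.24 and 7.37 on the others. The members are bright: 55 of the 65 lay above the upper quartile of all 8 arrays, and only Rpl3l, a paralogue known from striated muscle, lay below the lower quartile of all 8, and its signal cannot be told from background here.

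Most ribosomal protein genes deviated in the same direction on particular arrays. When each gene was set against its own mean over the 8 arrays, the median deviation of the members was -0.56 and -0.09 in the vehicle arrays at 3 weeks. It was 0.12 and 0.06 in the clothianidin arrays at 3 weeks, 0.06 and 0.20 in the vehicle arrays at 10 weeks, and 0.42 and -0.03 in the clothianidin arrays at 10 weeks. The first vehicle array at 3 weeks thus stood lowest, and the first clothianidin array at 10 weeks stood highest. The former held the lowest value of 46 of the 65 members, and the latter the highest value of 30.

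Other bright clusters moved the same way in these arrays by a smaller amount. The 2815 clusters outside the set with a mean of at least 10.84, the members' lower quartile, had a median deviation of -0.24 in the first vehicle array at 3 weeks, where 40.8% of them had their lowest value. In the first clothianidin array at 10 weeks their median deviation was 0.16. The 9 hippocampal neuron markers had median deviations of -0.82 and 0.42 in these same arrays. Their summed level was 105.61 and 112.61 in the vehicle arrays at 3 weeks, 111.61 to 113.42 in clothianidin arrays at 3 weeks, 111.88 to 113.58 in vehicle arrays and 114.78 to 115.95 in clothianidin arrays at 10 weeks. In whole tissue, fewer cells of a type and less RNA per cell cannot be told apart, and the part of these markers in the members' values was not tested.

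**Figure D1:**
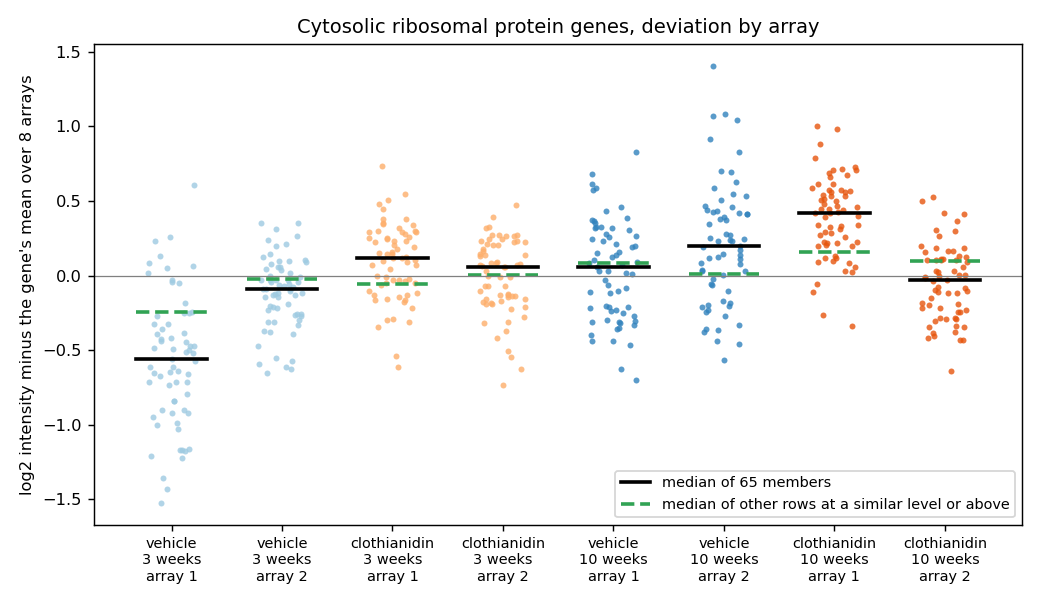
Log2 intensity of each of the 65 ribosomal protein genes (points) minus the gene's mean over the 8 arrays, by array, with the members' median (black line) and the median of the 2815 other clusters with a mean of at least 10.84 (dashed line). The first vehicle array at 3 weeks lies lowest, with a members' median of -0.56, and the first clothianidin array at 10 weeks highest, at 0.42.

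The first comparison asked whether ribosomal protein genes differed at 3 weeks between clothianidin and vehicle arrays. The fitted difference was above 0 for 59 of the 65 members, against 49.5% of all clusters (50.3% were below 0), with a members' median of 0.36 on the log2 scale and a median over all clusters of -0.01. Of the 2815 other bright clusters 62.6% were above 0, with a median of 0.10. None passed the threshold of an adjusted p under 0.05 in limma, as for all clusters (0%), and the lowest adjusted p of a member was 0.846. An unadjusted p under 0.05 was reached by 10 members, all with higher values after clothianidin, which is 15.4% of the set against 2.85% of all clusters higher, 3.05% lower and 5.9% in either direction. Clothianidin and vehicle arrays did not overlap in 29 members with higher values (background 17.2%) and in 2 with lower values (background 17.2%).

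These values depended on single arrays. Without the first vehicle array 47 of 65 members were higher and the members' median was 0.16. Without the second vehicle array the median was 0.59. Without the first or the second clothianidin array at 3 weeks it was 0.32 and 0.42. The number of members with an unadjusted p under 0.05 in limma also changed with each of these arrays left out. After quantile normalisation, which gives all arrays the same distribution, 7 members reached it and the median was 0.25. The share of all clusters that reached it in these other settings is not given, so the changes cannot be read as particular to the members.

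Large-subunit genes made up 7 of these 10 members. Rpl28, a large-subunit protein, read 12.42 and 13.66 in vehicle, then 14.26 and 14.17 with clothianidin. The groups did not overlap, but the vehicle arrays were 1.24 apart, and the difference was 1.18 ± 0.44 (SE, 2 arrays per group; unadjusted p 0.0211 and adjusted p 0.846 in limma). Without the first vehicle array it was 0.56.

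Rpl23, known also for binding the p53 regulator Mdm2, read 12.53 and 12.84 in vehicle, then 13.50 and 13.70 with clothianidin. Here both vehicle arrays lay below both clothianidin arrays by more than their own spread, with a difference of 0.92 ± 0.35 and 0.76 without the first vehicle array. Rpl21 read 13.20 and 14.37 against 14.97 and 14.86, a difference of 1.13 ± 0.46 that was 0.55 without the first vehicle array. The low first vehicle array thus carried much of the Rpl21 value and less of the Rpl23 value.

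Rpl36a, whose gene lies on the X chromosome, read 9.27 and 10.75 in vehicle, then 11.30 and 10.94 with clothianidin, a difference of 1.11 ± 0.44. Its value was 0.37 without the first vehicle array. Rpl35, which lies at the exit of the tunnel for the nascent protein, read 10.99 and 11.76 against 12.22 and 12.46 and differed by 0.97 ± 0.39, or 0.58 without that array. Rpl4, a protein that lines this tunnel, differed by 0.76 ± 0.32 and by 0.36 without it. Rplp1, an acidic protein of the stalk that recruits elongation factors, read 16.00 and 16.72 in vehicle, then 16.99 and 17.10 with clothianidin, a difference of 0.69 ± 0.31 that was 0.33 without the array.

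The other 3 of the 10 were small-subunit genes. Rps20 read 10.86 and 11.08 in vehicle, then 12.39 and 11.47 with clothianidin, where the clothianidin pair was the wider. Its difference was 0.96 ± 0.36, which became 0.85 when the first vehicle array was left out and 0.50 when the first clothianidin array was. Rps9 read 8.56 and 9.74 in vehicle, then 10.33 and 10.03 with clothianidin and differed by 1.03 ± 0.40, or 0.44 without the first vehicle array. Rps13 read 8.56 and 8.62 against 9.13 and 9.35, the tightest of these pairs, with a difference of 0.65 ± 0.28 and 0.62 without the first vehicle array. Rps20 and Rps13 therefore depended less on that array than Rps9 did.

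**Figure D2:**
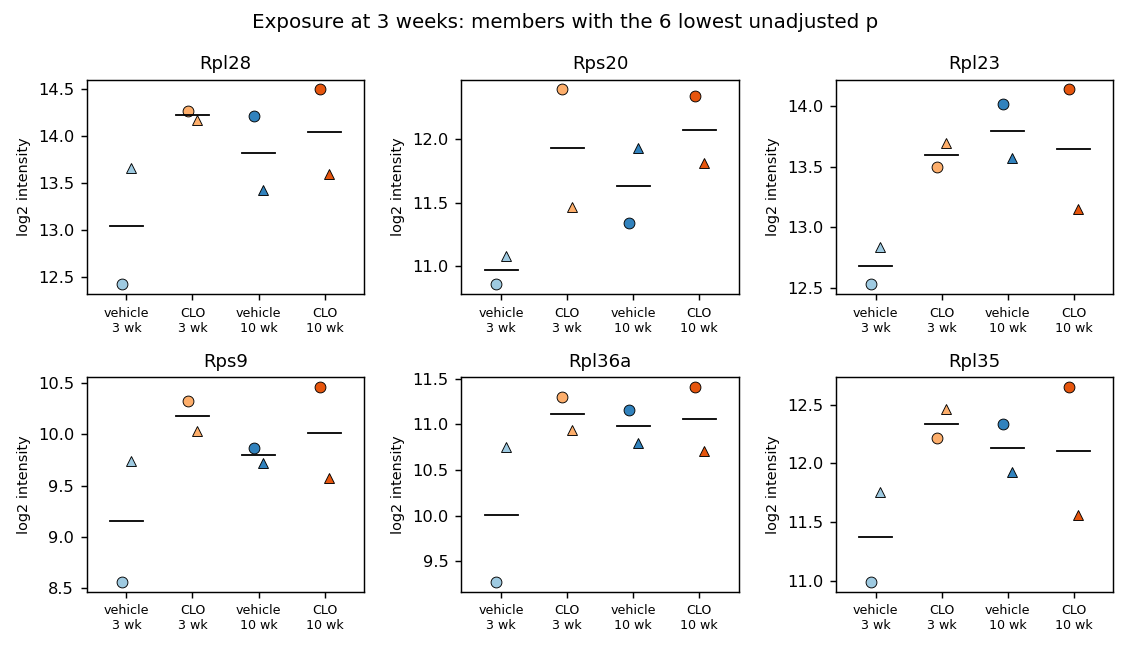
Log2 intensity of the 6 members with the lowest unadjusted p for exposure at 3 weeks, in the 4 groups (circle, first array; triangle, second array; line, mean of both). In Rpl28, Rps9 and Rpl36a the first vehicle array at 3 weeks lies more than 1 below the second, while Rps20 and Rpl23 have close vehicle arrays.

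Lower values were few. The testis-known paralogue Rpl10l read 6.62 and 6.25 in vehicle, then 6.02 and 6.14 with clothianidin at 3 weeks, a difference of -0.36 ± 0.30 (adjusted p 0.882 in limma). Rps14 was the other member that was lower without overlap, by -0.40 ± 0.35. Rps4l, a paralogue of Rps4x, differed by -0.39 ± 0.35 with overlapping arrays, and Rps4x itself by 0.21 ± 0.28. Of the 10 copies 6 were higher and 4 lower, with a median of 0.10, and of the other 55 members 53 were higher and 2 lower, with a median of 0.37. The difference between these classes was not tested.

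Other members with well-known roles gave smaller differences at 3 weeks than the 10 above. Rpl5 and Rpl11, which bind Mdm2 together with the small ribosomal RNA of the large subunit when ribosome assembly fails, differed by 0.47 ± 0.35 and 0.37 ± 0.32 at 3 weeks. Rps6, the substrate of the S6 kinases downstream of mTOR, differed by 0.23 ± 0.31, Rpsa, also known as a laminin receptor, by 0.61 ± 0.35, and Rplp0, the base of the stalk, by 0.32 ± 0.33. Rps19, mutated in Diamond-Blackfan anaemia, differed by 0.36 ± 0.38. The adjusted p of each of these 6 genes was 0.853 or higher in limma.

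At 10 weeks the exposure difference was spread around 0. The fitted difference was above 0 for 35 members (50.8% of all clusters) and below 0 for 29 (48.8%), with a members' median of 0.06 and a median over all clusters of 0.01. Of the 2815 other bright clusters 64.6% were above 0, with a median of 0.08. The members' median changed sign between settings: it was -0.04 after quantile normalisation and -0.08 with Ttr as a covariate. Leaving out the vehicle arrays of that age in turn gave -0.03 and 0.13, and leaving out the clothianidin arrays in turn gave -0.18 and 0.27. None passed in limma (0% of all clusters), the adjusted p of the members was 0.997 or higher, and 0 members reached an unadjusted p under 0.05 against 3.69% of all clusters (1.53% higher and 2.17% lower). Groups did not overlap in 1 member with higher values, Rpl14 (background 15.4%), and in 4 with lower values, Rpl7l1, Rps25, Rpl35a and Rps3a1 (background 15.3%).

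Rpl7l1, a paralogue of Rpl7 found in nucleolar ribosome precursors, read 9.87 and 9.63 in vehicle, then 9.33 and 9.16 with clothianidin at 10 weeks. Both clothianidin arrays lay below all 6 other arrays of the series, which read 9.63 to 9.87, and the difference was -0.51 ± 0.26 (adjusted p 0.997 in limma). Rps25 read 14.33 and 14.55 against 13.95 and 14.03, a difference of -0.45 ± 0.28. The largest statistics in the other direction came from Rps19 (0.59 ± 0.38), Rps28 (0.48 ± 0.36) and Rps27l, a paralogue of Rps27 known as a p53 target (0.61 ± 0.47), and their arrays overlapped. Rps27l read 7.99 and 7.35 in vehicle, then 8.77 and 7.79 with clothianidin.

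**Figure D3:**
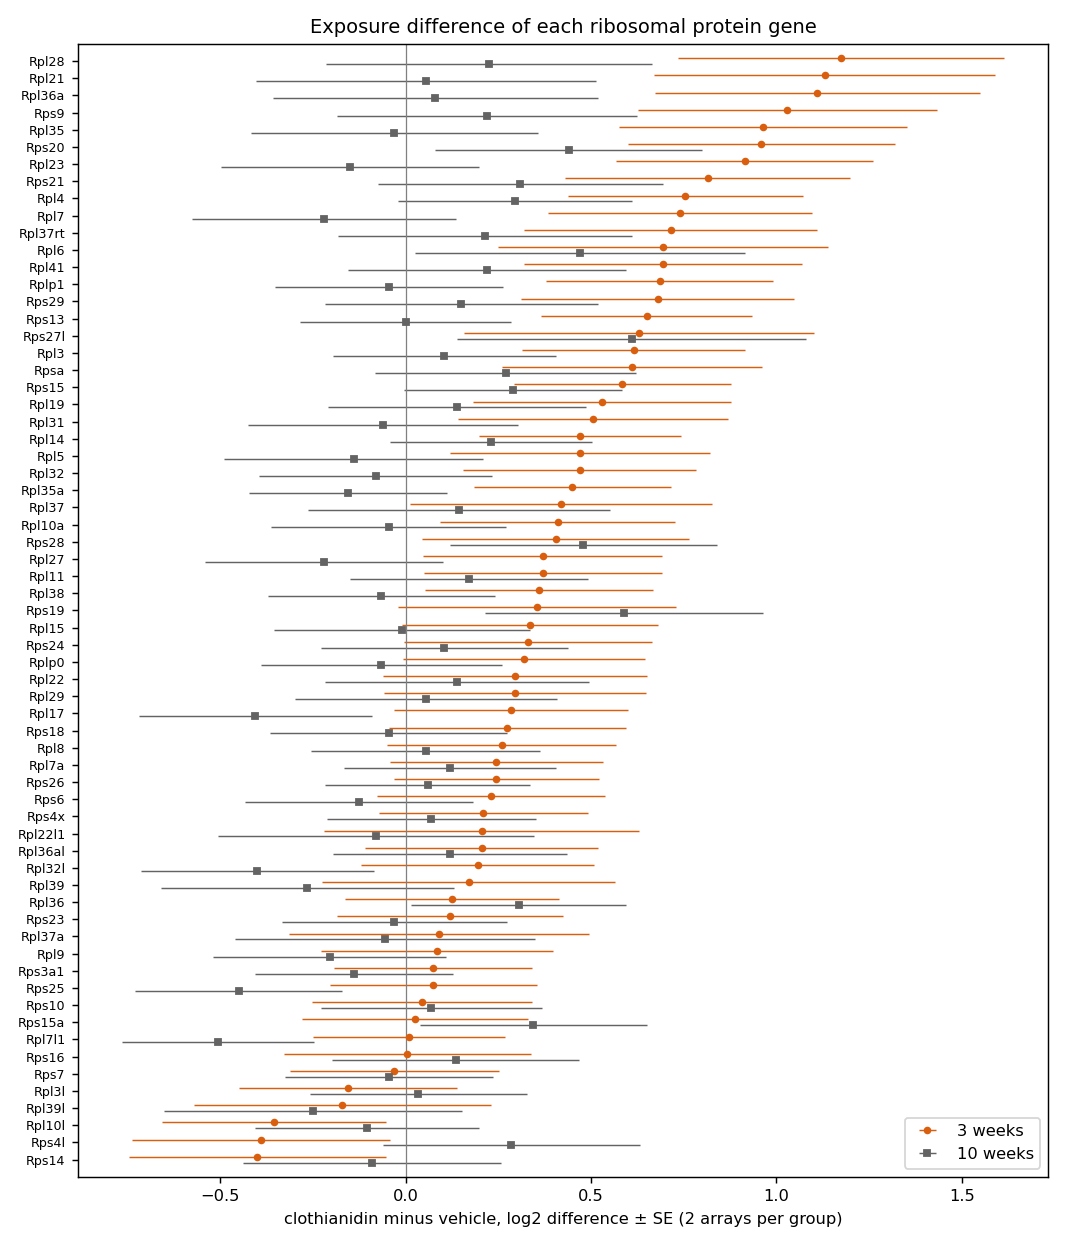
Clothianidin minus vehicle, log2 difference with its standard error, for each of the 65 members at 3 weeks (circles) and 10 weeks (squares), ordered by the value at 3 weeks. At 3 weeks 59 of 65 lie above 0, at 10 weeks 35 of 65, and none passed the threshold in limma at either age.

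The exposure difference itself was compared between the ages, as the value at 10 weeks minus that at 3 weeks. It was below 0 for 55 members (50.1% of all clusters) and above 0 for 10 (49.7%), with a members' median of -0.34 and a median over all clusters of 0. Of the 2815 other bright clusters 47.6% were above 0, with a median of -0.02. In limma 0 members passed (0% of all clusters) and 0 reached an unadjusted p under 0.05, against 3.13% of all clusters (1.7% higher and 1.43% lower). The largest statistics were those of Rpl23 (-1.07 ± 0.49), Rpl7 (-0.96 ± 0.50) and Rpl35 (-0.995 ± 0.55), each with an adjusted p of 0.998. Leaving out the vehicle arrays at 3 weeks in turn gave a members' median of -0.11 and -0.60. Leaving out the clothianidin arrays at 10 weeks in turn gave -0.56 and -0.17. The number of members with an unadjusted p under 0.05 also changed with the array left out. The share of all clusters in these fits is not given.

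Averaged over both ages, the exposure difference was above 0 for 52 members (49.7% of all clusters) and below 0 for 13 (50.1%), with a median of 0.18 against 0 over all clusters. Of the 2815 other bright clusters 66.7% were above 0, with a median of 0.10. None passed in limma (0% of all clusters, lowest adjusted p of a member 0.774). The 3 members with an unadjusted p under 0.05, all higher (4.62% of the set, against 2.95% of all clusters higher, 3.22% lower and 6.17% in either direction), were Rps20 (0.70 ± 0.26), Rpl4 (0.53 ± 0.22) and Rpl28 (0.70 ± 0.31). Leaving out 1 array at a time, the members' median ran from 0.07 (without vehicle replicate 1 at 3 weeks) to 0.33 (without clothianidin replicate 2 at 10 weeks). The count of members with an unadjusted p under 0.05 also changed with the array left out. The share of all clusters in these fits is not given, so the changes cannot be read as particular to the members.

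The last comparison asked how the members differed between 3 and 10 weeks, over the 4 arrays of each age. Rpl22l1, Rpl37rt and Rps13 rose, with an adjusted p under 0.05 in limma, and none fell. This is 4.62% of the set, while 11.2% of all clusters passed in either direction, 6.37% with higher and 4.84% with lower values. The fitted difference was above 0 for 52 of 65 members, against 56% of all clusters (43.9% were below 0), with a members' median of 0.30 against 0.07. Of the 2815 other bright clusters 68.7% were above 0, with a median of 0.16, and 6.68% passed in either direction. An unadjusted p under 0.05 was reached by 14 members, all higher (21.5% of the set, against 17.6% of all clusters with higher values, 11.9% with lower and 29.5% in either direction). The share of members past the threshold was near that of all clusters with higher values, and the difference between these shares was not tested.

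Rpl22l1 encodes a paralogue of Rpl22, a large-subunit protein that also binds messenger RNA. It read 11.34 and 11.44 in vehicle, then 11.76 and 11.43 with clothianidin at 3 weeks, and 11.85 and 13.46 in vehicle, then 12.57 and 12.58 with clothianidin at 10 weeks. All arrays at 10 weeks lay above all arrays at 3 weeks, least so vehicle replicate 1 at 10 weeks and most so vehicle replicate 2. The difference was 1.12 ± 0.30 with an adjusted p of 0.0379 in limma, while leaving out the highest array, vehicle replicate 2 at 10 weeks, gave 0.72. Rpl22 itself read between 10.88 and 11.84 at 3 weeks and between 11.64 and 12.26 at 10 weeks, with overlap, and differed by 0.49 ± 0.25 (adjusted p 0.222). Over the 8 arrays the values of the pair correlated at r = 0.735, a description over arrays that share their groups.

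Rpl37rt is annotated as a retrocopy of Rpl37, so that its probes may also read the parent messenger RNA. It read 12.11 and 12.65 in vehicle, then 13.10 and 13.09 with clothianidin at 3 weeks, then 13.07 and 14.35 in vehicle, then 14.16 and 13.69 with clothianidin at 10 weeks. The ages overlapped only by the first vehicle array at 10 weeks. The difference was 1.08 ± 0.28 with an adjusted p of 0.0334, and that of Rpl37 was 0.71 ± 0.29 with an adjusted p of 0.129. Copy and parent followed each other over the 8 arrays at r = 0.898, with the second vehicle array at 10 weeks highest in both.

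Rps13, a small-subunit protein, read 8.56, 8.62, 9.13 and 9.35 at 3 weeks and 9.49, 9.78, 9.89 and 9.38 at 10 weeks (vehicle pair, then clothianidin pair). The ages did not overlap, and the vehicle arrays at 3 weeks were the lowest. The difference was 0.72 ± 0.20 with an adjusted p of 0.0425 in limma, from 8.92 ± 0.39 (SD, n = 4) to 9.64 ± 0.24 (SD, n = 4). Each age pools the vehicle and clothianidin pairs, whose means were 8.59 and 9.24 at 3 weeks and both 9.64 at 10 weeks. The SD at 3 weeks thus includes the gap between these groups.

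These calls were close to the threshold. Leaving out 1 array at a time, each of the 3 members lost its call in most cases. Such a fit leaves 1 array in a group, and fewer of all clusters were called in most of these fits. The lost calls therefore cannot be read as particular to the members. The differences themselves stayed above 0, between 0.72 and 1.53 for Rpl22l1, 0.76 and 1.40 for Rpl37rt, and 0.59 and 0.85 for Rps13. After quantile normalisation none of the 3 was called, with adjusted p-values of 0.0815, 0.0634 and 0.111, and Rplp1 was called alone (0.79, adjusted p 0.0355). Rps13 also lost its call with the replicate number as a block (adjusted p 0.0634) and with each array centred on its median (adjusted p 0.06), where Rpl22l1 and Rpl37rt kept theirs.

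**Figure D4:**
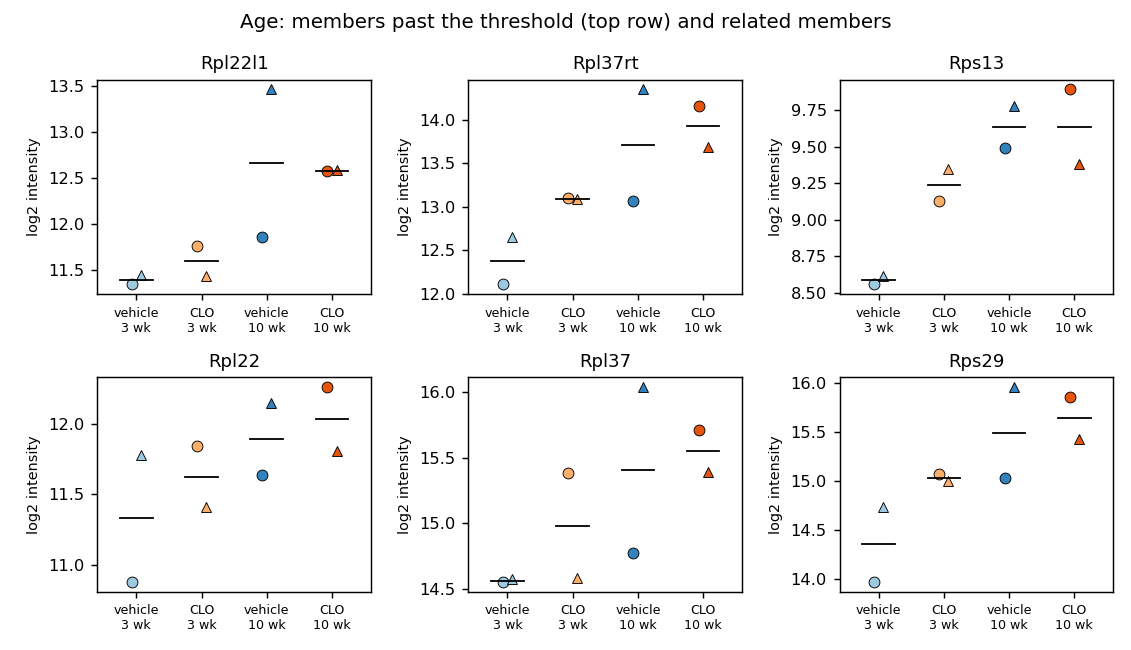
Log2 intensity in the 4 groups (circle, first array; triangle, second array; line, mean of both) for the 3 members called with age (top row) and for Rpl22, Rpl37 and Rps29. The second vehicle array at 10 weeks is the highest array in Rpl22l1, Rpl37rt, Rpl37 and Rps29, and the vehicle arrays at 3 weeks are the lowest in Rps13.

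Among members short of the threshold, Rps29 read 13.97 to 15.07 at 3 weeks and 15.03 to 15.96 at 10 weeks, a difference of 0.88 ± 0.26 with an adjusted p of 0.0518. Rplp1 read 16.00 to 17.10 and then 17.15 to 17.51 without overlap, a difference of 0.65 ± 0.22 (adjusted p 0.0752). Rplp0, the other stalk gene in the set, differed by 0.02 ± 0.23. Besides Rpl22l1, Rps13 and Rplp1, the ages did not overlap in Rpl3, Rpl35a, Rpl38 and Rps3a1, which makes 7 members higher at 10 weeks (10.8%, background 11.8%).

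Of the 10 copies 2 rose with age, Rpl22l1 and Rpl37rt, and none fell, against 1 of the other 55 members, Rps13. Of all clusters 6.37% rose and 4.84% fell. The difference between copies and other members was not tested, and Rpl37rt may read its parent. Rpl3l, whose differences are between values that cannot be told from background, read 3.46 to 4.09 at 3 weeks and 3.18 to 3.37 at 10 weeks, a difference of -0.45 ± 0.21 (adjusted p 0.173), while Rpl3 differed by 0.56 ± 0.21 (adjusted p 0.107). It was the only member lower at 10 weeks without overlap (1.54% of the set, background 7.89%), with all 8 arrays below the lower quartile. Rpl10l differed by 0.60 ± 0.21, Rpl7l1 by -0.19 ± 0.18 and Rpl32l by -0.12 ± 0.22, none of them called. Among members that are not copies, the lowest value came from Rps16, at -0.33 ± 0.24 (adjusted p 0.38).

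Cell type markers also moved with age in the same arrays. Of the 9 hippocampal neuron markers 7 were higher at 10 weeks, as were most members, with a median of 0.43. So were 56% of all clusters and 68.7% of the other bright clusters. Among the 9, Neurod2 rose (0.87 ± 0.24, adjusted p 0.0434 in limma). All 7 measured oligodendrocyte markers fell, and their summed level was 90.99 to 99.33 at 3 weeks and 83.65 to 85.82 at 10 weeks. Of 5 measured immature neuron markers 3 fell (Dcx, Calb2 and Draxin), with a summed level of 45.54 to 46.51 at 3 weeks and 42.89 to 43.52 at 10 weeks. Their part in the members' values was not tested.

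Other genes of protein synthesis gave a frame for the set. Of 76 mitochondrial ribosomal protein genes, which serve the separate ribosome of that organelle, 6 rose with age and none fell (median 0.11), where 6.37% of all clusters rose. The 6 included Mrpl35 (1.03 ± 0.21, adjusted p 0.0148) and Mrpl1 (0.91 ± 0.19, adjusted p 0.0166). Of 35 ribosome biogenesis genes 2 rose, Nop14 (1.14 ± 0.26, adjusted p 0.0202) and Wdr12 (0.89 ± 0.25, adjusted p 0.0447), both needed for processing of ribosomal RNA. How these counts differ from the share over all clusters was not tested. Among 30 initiation factor genes Eif3i rose by 0.73 ± 0.19 and Eif2b4 fell by 0.89 ± 0.21 (adjusted p 0.0322 and 0.0217). None passed among 12 elongation and termination genes, 17 terminal oligopyrimidine genes outside the ribosome and 16 genes of mTOR and translation control, where the nearest was the eIF4E-binding protein gene Eif4ebp2 (0.69 ± 0.21, adjusted p 0.0514).

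For exposure, 0 genes of these lists passed at either age in limma. At 3 weeks 55 of the 76 mitochondrial ribosomal protein genes were higher (median 0.19), against 49.5% of all clusters. Mrpl52 was at 1.32 ± 0.33 and Mrpl2 at 1.24 ± 0.32, each with an adjusted p of 0.846. Of the 17 terminal oligopyrimidine genes outside the ribosome 16 were higher (median 0.17), against 62.6% of the other bright clusters. They were led by Eif3f (0.75 ± 0.29) and Pabpc1 (0.78 ± 0.35). Their summed level was 221.58 and 226 in the vehicle arrays, then 227.35 and 227.73 in the clothianidin arrays. Many of these genes also belong to the initiation, elongation or biogenesis lists, so the lists are not separate. The medians were 0.19 for initiation, 0.21 for biogenesis, 0.06 for elongation and -0.07 for mTOR and translation control. At 10 weeks the medians of these 6 lists lay between 0.07 and 0.15. Fau, which encodes a small-subunit protein fused to a ubiquitin-like domain and falls outside the symbol rule, read 10.29 and 11.38 in vehicle, then 11.93 and 11.42 with clothianidin at 3 weeks, with its lowest array the one that was lowest in 46 members.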

How the data were processed

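The deposited table holds 1 log2 value per array for each transcript cluster, which the authors computed with RMA, per the submitters' processing notes. It is not stated if all 8 arrays entered 1 normalisation, and the scale was inferred from the range of the numbers. RNA (250 ng a sample, integrity number over 7) was amplified and hybridised, per the labels. All 22206 clusters were fitted in limma 3.58.1 (R 4.3.3) with a mean per group and the default prior. Tests were two-sided, and p-values were adjusted by Benjamini-Hochberg over all clusters with a threshold of 0.05. Errors of differences are standard errors of this model. The model was tested on simulated data. The number of arrays, 2 per group, limits the precision. The members, lists and tests were chosen with earlier results of these data known. Named were members past the threshold, otherwise up to 3 of the largest statistics in a direction, and fixed genes with known roles. For the difference between the ages and the mean of both ages only the direction of most members was named. Members named for an unadjusted p under 0.05 or for groups that do not overlap were chosen after their values were seen. Alternatives were other thresholds, priors, normalisations, samples, covariates and blocks.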

Additional observations from a re-analysis of the deposited data

How the results depend on the processing

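The exposure comparisons gave 0 members past an adjusted p of 0.05 in limma under every other prior, normalisation, block, covariate, filter and left-out array tried. With a looser rule (at least 1.5-fold and unadjusted p below 0.05 in limma), 10 members were counted at 3 weeks, 2 for the mean of both ages and 9 for age. The share of all clusters under this rule is not given, so these counts have no background. For age, 3 members were called in the main setting, 8 at an adjusted p under 0.1 and 5 with a prior that follows the mean. With Ttr as a covariate 5 were called, and 1 after quantile normalisation (9.23% of all clusters called). Without the 3 arrays with Ttr above 18 the members' median for the difference of the exposure effects was -0.79 (main -0.34). This leaves a single array in every group but vehicle at 10 weeks. For vehicle at 3 weeks it is the first array, which stood lowest, so the value rests on single arrays. Of all clusters, 11.2% were called for age in the main setting and 10.2% with Ttr as a covariate. That share is not given at an adjusted p under 0.1 or with the prior that follows the mean. Leaving out 1 array at a time, the count for age ran from 0 to 6, and the share of all clusters called from 2.83% to 11.5%. The count of members with an unadjusted p under 0.05 at 3 weeks, recomputed after seeing the data, ran from 0 to 20 (main 10). The labels do not say whether the replicate numbers pair the arrays. Deviations of same-numbered arrays correlated between -0.267 and 0.138 over the pairs of groups. With 2 arrays per group, such correlations cannot settle whether same-numbered arrays share a litter or batch. With the replicate number as a block 2 members were called for age (Rps13 was lost), where 8.12% of all clusters were called. In that fit 8 members reached an unadjusted p under 0.05 in limma for exposure at 3 weeks, with no share of all clusters given. The cause of these shifts was not tested.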

Other observations

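The arrays of a group differed mostly in 1 direction in 2 pairs and in both directions in the others. In the vehicle pair at 3 weeks 57 of 65 members were higher in the second array, with a median of the second minus the first of 0.40 against 0.01 over all clusters. In the vehicle pair at 10 weeks 39 members were higher in the second array and 26 in the first. There 8 members were apart by at least 1 (12.3%, against 6.08% of all clusters and 4.48% of the other bright clusters). The second array was higher by 1.61 in Rpl22l1, 1.44 in Rpl37a, 1.41 in Rpl39, 1.28 in Rpl37rt and 1.27 in Rpl37. It was lower by 1.16 in Rpl21, and Rpl5, Rpl6 and Rpl28 also read lower in it. In the clothianidin pair at 10 weeks the first array was higher in 61 of 65 members, with a median of the second minus the first of -0.43 against -0.01 over all clusters. The clothianidin pair at 3 weeks was the closest, with 0 members apart by at least 1 (4.22% of all clusters). Of the other bright clusters 0.817% were apart by as much, so the members were near clusters of their level. Of the 52 members whose promoter entry was used, 17 have a listed start that opens with C and a pyrimidine. Their medians were 0.37 for exposure at 3 weeks and 0.30 for age. The other 35 had 0.32 and 0.36, with no test of the difference.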
